A study of Mus musculus with 4 samples.

Results

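The IL-17 axis was followed through 9 genes, taken by symbol from the 32289 features of single-cell RNA libraries of mouse lung tumours. They are the cytokine genes Il17a, Il17f and Il22, the receptor gene Il23r, the genes Il23a and Il12b for the subunits of its ligand, and the receptor genes Il17ra, Il17rc and Il17re. All 9 were among the features, and all had unique molecular identifiers (UMIs, each counting 1 captured transcript) in both libraries made before immune cells were removed. The symbols were listed for their place in the pathway.

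The mice carried p53frt, Rosa-FSF-CreERT2 and Hnf4aflox, and tumours were started by adenoviral mSPC-FlpO, in which the surfactant protein C promoter of alveolar type 2 cells drives a recombinase. All 4 libraries share this genotype. Tamoxifen, which activates CreERT2 and so acts on floxed Hnf4a in cells that FlpO has reached, or its vehicle was injected 10 weeks after intubation, and lung tumours were taken 2 weeks later. A portion of each suspension was set aside before beads against CD45 and CD31 removed immune and endothelial cells, which gives 4 groups of 1 library each: vehicle and tamoxifen, before and after depletion. The animals' ages and the number of tumours and animals in a suspension are not given in the labels. Each group being a single library, nothing was tested between treatments. Intervals are 95% intervals that cover counting error only, and a treatment cannot be told apart from the suspension that received it.

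Before depletion, filters kept 7079 cells with vehicle and 6111 with tamoxifen, after it 6923 and 7358, at median depths from 9302 to 17733 UMIs per cell. Pairs of libraries shared from 10 to 18 cell barcodes. Hnf4a went against the label: in epithelial-like cells before depletion it stood at 56.6 (54.0 to 59.3) UMIs per 1000000 UMIs of the class (abbreviated CPM) with vehicle and 86.6 (83.6 to 89.7) with tamoxifen. Counts from the 3′ end do not show whether exons were deleted, so each library is called by its label and no direction is tied to loss of Hnf4a. Cells were clustered without the 9 genes and classes were named from markers, as "X-like".

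IL-17A and IL-17F are secreted by lymphocytes of several kinds, in the lung often gamma-delta T cells that are poised to make IL-17. IL-23, a dimer of the Il23a and Il12b products, is made by myeloid cells and sustains these lymphocytes through Il23r and Il12rb1, while Il12b paired with Il12a forms IL-12. IL-17A and IL-17F act through Il17ra with Il17rc, and IL-17C acts through Il17ra with Il17re. In epithelium these receptors induce neutrophil-attracting chemokines and antimicrobial proteins.

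In the GRCm38 build (GENCODE M21) Il17a lies at chr1:20730905-20734496 on the plus strand and Il17f at chr1:20777146-20790617 on the minus strand, with 42649 bases between them. Il17re (chr6:113458484-113470758) and Il17rc (chr6:113471427-113483140) follow each other on the plus strand with 668 bases between them. Il17ra (chr6:120463247-120487559, plus strand) and Il23r (chr6:67422932-67491855, minus strand) are on the same chromosome. Il22 lies at chr10:118204942-118210047 on the plus strand, Il23a at chr10:128296139-128298752 on the minus strand and Il12b at chr11:44400063-44414033 on the plus strand. All 9 are annotated as protein-coding.

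The 250 bases before the RefSeq start are printed for Il17a, Il23r and Il17re, because the gamma-delta T cell class described below held the highest CPM of each, and for Il17f, the neighbour of Il17a that had few UMIs there. The sequences are RefSeq's (GRCm38.p6), 5′ to 3′ on the strand of the gene. Capitals mark AGGTCA, a half-site of nuclear receptors, or its reverse complement. The windows are chr1:20730655-20730904 (plus strand) for Il17a, chr1:20784271-20784520 (minus strand) for Il17f, chr6:67491856-67492105 (minus strand) for Il23r and chr6:113458521-113458770 (plus strand) for Il17re. For Il17f and Il17re the RefSeq start lies inside the GENCODE gene.
Il17a: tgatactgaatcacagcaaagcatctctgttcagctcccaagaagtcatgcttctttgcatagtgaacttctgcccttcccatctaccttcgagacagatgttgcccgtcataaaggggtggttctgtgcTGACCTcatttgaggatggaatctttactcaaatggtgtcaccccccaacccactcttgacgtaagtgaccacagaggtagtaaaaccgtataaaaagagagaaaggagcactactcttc
Il17f: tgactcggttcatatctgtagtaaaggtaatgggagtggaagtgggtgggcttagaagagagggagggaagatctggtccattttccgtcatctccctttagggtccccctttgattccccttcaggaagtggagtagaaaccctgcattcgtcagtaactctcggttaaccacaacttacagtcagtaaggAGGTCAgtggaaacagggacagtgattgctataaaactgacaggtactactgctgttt
Il23r: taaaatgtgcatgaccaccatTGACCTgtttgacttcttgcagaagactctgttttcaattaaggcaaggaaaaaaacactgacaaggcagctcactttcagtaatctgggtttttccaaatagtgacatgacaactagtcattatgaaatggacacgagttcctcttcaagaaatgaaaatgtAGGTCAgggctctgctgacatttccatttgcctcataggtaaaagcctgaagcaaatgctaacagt
Il17re: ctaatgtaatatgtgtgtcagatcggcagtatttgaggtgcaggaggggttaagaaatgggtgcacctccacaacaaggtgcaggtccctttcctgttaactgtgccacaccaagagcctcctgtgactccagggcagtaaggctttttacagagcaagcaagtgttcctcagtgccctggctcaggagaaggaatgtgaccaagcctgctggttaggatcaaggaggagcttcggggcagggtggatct

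The half-site occurred 1 time before Il17a, with its first base 120 bases before the start, and 1 time before Il17f, at 58 bases. It occurred 2 times before Il23r, at 229 and 66 bases, and 0 times in the window of Il17re. Of all 32851 windows of the same length, 14.0% held it on either strand. RefSeq windows were matched for 7 of the 9 genes, not for Il23a and Il17ra. Among those 7, the AP-1 motif TGANTCA (6.75% of all windows) occurred before Il17a alone, the kappaB motif (1.41%) before Il23r and Il17rc, and the STAT motif TTCNNNGAA (7.02%) before none. The windows of Il22 and Il12b held none of the 4 motifs. These are matches of letters and not measured binding.

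Il17a, the gene of the founding cytokine of the family, was concentrated in a class of 44 cells with vehicle (0.622% of kept cells, exact Clopper-Pearson interval 0.452 to 0.834) and 37 cells with tamoxifen (0.605%, 0.427 to 0.834). This gamma-delta T17-like class was led by Cd163l1, Trdc, Il1r1, Blk and Tcrg-C1. Trdc, the constant region of the delta receptor chain, stood at 1720 and 2090 CPM, the lineage factor Sox13 at 105 and 93.7, and the gamma-delta variable segment Trdv4 at 182 and 159 CPM with vehicle and tamoxifen. Genes of alpha-beta T cells were present in part: Trbc2, a beta-chain constant region, stood at 737 and 725 CPM, Trac, the alpha-chain constant region, at 131 and 79.3, Cd4 at 12.8 and 0, and Cd8a had 0 UMIs in both libraries. The 5 neutrophil markers summed to 15.9 and 36.1 CPM and the 5 epithelial markers to 28.7 and 36.1 CPM.

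Il17a had 269 UMIs with vehicle in these cells, 858 CPM (758 to 967), and 812 UMIs in the library labelled tamoxifen, 2930 CPM (2730 to 3140). The level was 3.41-fold higher (2.97 to 3.93) in the library labelled tamoxifen. Of 8732 genes of the class that reached 10 CPM with either treatment, 23.6% differed 2-fold or more, 10.4% being above and 13.1% below the vehicle level with tamoxifen, so gaps of 2-fold were common in so small a class. The class's share of the cells was nearly equal in the libraries, and the cells' median depth was 5796 UMIs with vehicle and 7384 with tamoxifen.

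The difference lay in how many cells held many Il17a UMIs. Il17a was found in 18 of 44 cells (40.9%) with vehicle and in 24 of 37 cells (64.9%) with tamoxifen. At 2000 UMIs per cell the shares were 31.8% and 52.8%, and in alveolar macrophage-like cells, which should lack the gene, 0.0617% and 0 (0.0611% and 0.0477% unthinned). The 8 highest cells held 125, 30, 27, 22, 11, 10, 7 and 7 UMIs with vehicle and 128, 108, 92, 90, 80, 74, 49 and 37 with tamoxifen. Thus the top cells of both libraries were alike (125 and 128 UMIs), but the others of the 8 held fewer UMIs with vehicle. In the whole class 2 vehicle cells against 11 tamoxifen cells held 30 UMIs or more. Without the 2 highest cells of each library, a choice made after the data were seen, the log2 ratio of CPM moved from 1.77 (1.57 to 1.98) to 2.42 (2.13 to 2.73). The highest vehicle cell held 46.5% of that library's UMIs in the class and the highest tamoxifen cell 15.8%. Cells with Il17a had median depths of 7890 and 8751.5 UMIs and the others 5407 and 5642, and the part of depth beyond the thinned shares was not tested.

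**Figure D1:**
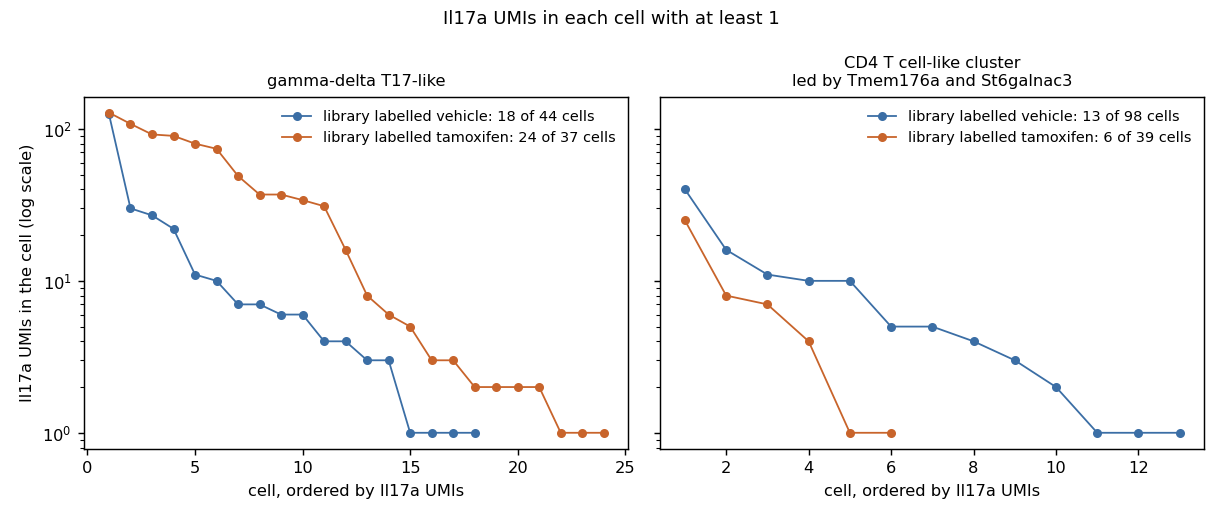
Il17a UMIs (vertical axis, log scale) in each cell with at least 1, ordered from highest to lowest, in the gamma-delta T17-like class (left) and a CD4 T cell-like cluster (right); each point is a cell. In the gamma-delta class 11 cells of the library labelled tamoxifen and 2 of the vehicle library held 30 UMIs or more.

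The gamma-delta T17-like cells held 61.8% (57.1 to 66.4) of all Il17a UMIs with vehicle and 87.8% (85.5 to 89.8) with tamoxifen. The next source was a CD4 T cell-like cluster led by Tmem176a and St6galnac3. There Il17a had 109 UMIs in 13 of 98 cells with vehicle, 197 CPM (162 to 238), and 46 UMIs in 6 of 39 cells with tamoxifen, 167 CPM (123 to 223). The ratio of vehicle to tamoxifen was 1.18 (0.827 to 1.7), so the treatments differed there by no more than counting error.

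Of the gamma-delta genes, Cd163l1, Blk, Sox13 and Trdv4 had 0 UMIs in this cluster in both libraries, Trdc had 1 and 0, and Tcrg-C1 had 25 and 7 (45.2 and 25.5 CPM). Other markers used to name the gamma-delta class were present. Tmem176a stood at 519 and 640 CPM, and 5830411N06Rik had 4 and 1 UMIs. Ccr6 stood at 45.2 and 106 CPM, above its 15.9 and 43.3 CPM in the gamma-delta class. Trac stood at 559 and 509 CPM and Cd4 at 230 and 175 CPM, and Cd8a at 83.2 and 83.7 CPM. Few Il17a UMIs lay elsewhere. Cycling T cell-like cells held 23 with vehicle and 34 with tamoxifen, of which 1 cell held 33, and an unnamed T or NK cluster led by Sftpc and Sftpb held 23 and 0, of which 1 cell held 20. The cell with 20 also held 4 Trdc and 10 Cd163l1 UMIs, and the cycling cell with 33 held 0 of each. The Sftpc and Sftpb cluster, led by surfactant genes, had a median depth of 25023 UMIs, against 6498 in the gamma-delta class. Whether its barcodes hold more than 1 cell was not tested beyond the doublet filter. With tamoxifen 1 type 2 dendritic cell-like cell held 8 Il17a, 3 Trdc and 8 Cd163l1 UMIs. Epithelial-like cells held 0 and 8 Il17a UMIs. After depletion, Il17a had 0 UMIs in either library, which allows up to 0.0433% and 0.0408% of cells with a UMI and sets no limit on cells that express the gene.

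Il17f, whose product can pair with that of Il17a, was sparse: 26 UMIs in the vehicle library and 31 in the library labelled tamoxifen. In gamma-delta T17-like cells it had 4 and 2 UMIs, and in CD4 T cell-like cells 7 and 7. A further 17 tamoxifen UMIs lay in 1 cell of an unnamed T or NK cluster led by Xcl1 and Cd74. That cell held 3 Ccr6 UMIs and none of Trac, Cd3e or Trdc. After depletion 23 and 20 Il17f UMIs were counted, all in epithelial-like cells (0.169 and 0.149 CPM). No ratio was formed, since its leading class before depletion, CD4 T cell-like cells, held 14 UMIs over both libraries.

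Il22, a cytokine that acts on epithelium, was carried by single cells. Of 29 UMIs with vehicle, 13 lay in 1 CD4 T cell-like cell that also held 40 Il17a and 45 Il23r UMIs, and 9 in 1 type 2 dendritic cell-like cell. Of 46 UMIs with tamoxifen, 22 lay in 1 gamma-delta T17-like cell that also held 74 Il17a UMIs, and 21 in 1 cell of the Xcl1 and Cd74 cluster that held 7 Il23r and 7 Ccr6 UMIs. In the gamma-delta class this is 79.3 CPM (49.7 to 120) against 0. With vehicle set to a floor of 3 counts (9.57 CPM) the log2 ratio was 3.05, and the counting interval reached down to 2.63. It rests on that cell, 1 of 37 (2.7%) with a UMI, and 0 of 44 allows up to 6.82% of vehicle cells with a UMI. Il22ra1, its receptor chain, had 20 and 8 UMIs in epithelial-like cells (0.62 and 0.225 CPM).

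Of 20 genes of the gamma-delta T17 programme, all 20 reached 10 CPM in the class. In the library labelled tamoxifen 2 were at least 2-fold higher and 0 lower, with a median log2 ratio of -0.15 against -0.09 over all genes. As 10.4% of all genes of the class were higher, 2 of 20 is no more than the background. The highest were Trdc, Cd163l1, the nuclear receptor gene Rora (1600 and 1210 CPM) and the IL-7 receptor gene Il7r (1280 and 1160 CPM). The higher ones were Irf4, a transcription factor of activated lymphocytes, at 102 and 213 CPM (32 and 59 UMIs, 2.08-fold, 1.33 to 3.31), and the chemokine receptor Ccr6 at 15.9 and 43.3 CPM, on 5 and 12 UMIs (2.71-fold, 0.89 to 9.83). The programme's median thus lay close to that of all genes, while Il17a differed.

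A list of 9 other ligand genes held further members of the IL-17 family, not all of them lymphocyte genes, and cytokines of lymphocytes. Of these 9, 3 reached 10 CPM in the gamma-delta class, 1 higher and 1 lower with tamoxifen, in a class where 10.4% and 13.1% of all genes were. Areg, the epidermal growth factor receptor ligand amphiregulin, had 5 UMIs (15.9 CPM) with vehicle and 46 (166 CPM) with tamoxifen, 10.4-fold higher (4.15 to 33.5). Csf2, which encodes GM-CSF, had 24 and 5 UMIs and was 4.25-fold lower with tamoxifen (1.59 to 14.2). Tnf stood at 124 and 166 CPM. Areg was also higher in CD4 T cell-like cells, 23.3 against 93.7 CPM (4.02-fold, 2.81 to 5.84), the 1 of 5 measured genes of the list that was 2-fold apart there. In that class 4.2% of 8403 genes were at least 2-fold apart and 1.68% were higher with tamoxifen. Ifng, the cytokine of type 1 responses, stood at 112 and 79.1 CPM and Tnf at 75.7 and 51.6. In epithelial-like cells Areg stood at 755 and 794 CPM and 0 of 2 measured genes of the list were 2-fold apart.

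Il23r, the receptor chain specific to IL-23, marked the same gamma-delta cells and did not differ beyond counting error between treatments. It had 234 UMIs in 40 of 44 cells with vehicle, 746 CPM (654 to 848), and 196 UMIs in 31 of 37 cells with tamoxifen, 707 CPM (611 to 813). The ratio of tamoxifen to vehicle was 0.947 (0.779 to 1.15). At 2000 UMIs per cell the gene was found in 72.7% and 55.6% of cells. It was not limited to cells with Il17a: with vehicle 17 of 18 cells with Il17a and 23 of 26 without held Il23r, and with tamoxifen 22 of 24 and 9 of 13. Of 7 other receptor genes of the axis, 3 reached 10 CPM in the class, with 0 higher and 1 lower (10.4% and 13.1% of all genes). Il12rb1, the partner chain, had its highest mean CPM in this class too, 28.7 and 46.9, and Il10rb, a chain of the IL-22 receptor, stood at 41.5 and 36.1. Il12rb2, the chain of the IL-12 receptor, had 11 UMIs with vehicle and 0 with tamoxifen, and the 5 NK cell markers summed to 28 UMIs (4 of 5 detected) and 0 in the same cells. Their part in the Il12rb2 values was not tested. In CD4 T cell-like cells Il12rb2 stood at 44.0 and 52.4 CPM, and 0 of 3 measured genes of the list were 2-fold apart, as were 0 of 1 in epithelial-like cells.

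Outside the gamma-delta class Il23r followed the Il17a-bearing CD4 cluster, with 99 UMIs, 179 CPM (146 to 218), with vehicle and 16 UMIs, 58.2 CPM (33.3 to 94.5), with tamoxifen. The vehicle level was 3.08-fold higher (1.8 to 5.59), but 1 vehicle cell held 45 of the 99 UMIs. Over all CD4 T cell-like cells, where 2.52% of genes were lower in the library labelled tamoxifen, the levels were 53.5 and 19.8 CPM. Regulatory T cell-like cells stood at 34.8 and 26.3 CPM, and migratory dendritic cell-like cells at 21.4 and 19.0 CPM, neither apart beyond counting error. Small sources were similar or rested on 1 cell. An unnamed T or NK cluster of 12 and 16 cells led by Chil3 and Ccl6 held 32 and 30 UMIs. Its median depth was 15625 UMIs, against 6498 in the gamma-delta class, and Chil3 and Ccl6 also led the main alveolar macrophage-like cluster. Its barcodes passed the doublet filter, and whether they hold more than 1 cell was not tested further. Cycling T cell-like cells held 29 and 38, of which 1 tamoxifen cell held 35. That cell also held 29 Trdc and 12 Cd163l1 UMIs, and so carried gamma-delta genes outside the gamma-delta class. In the Chil3 and Ccl6 cluster 1 tamoxifen cell with 12 Il23r UMIs held 13 Trdc and 26 Cd163l1 UMIs.

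**Figure D2:**
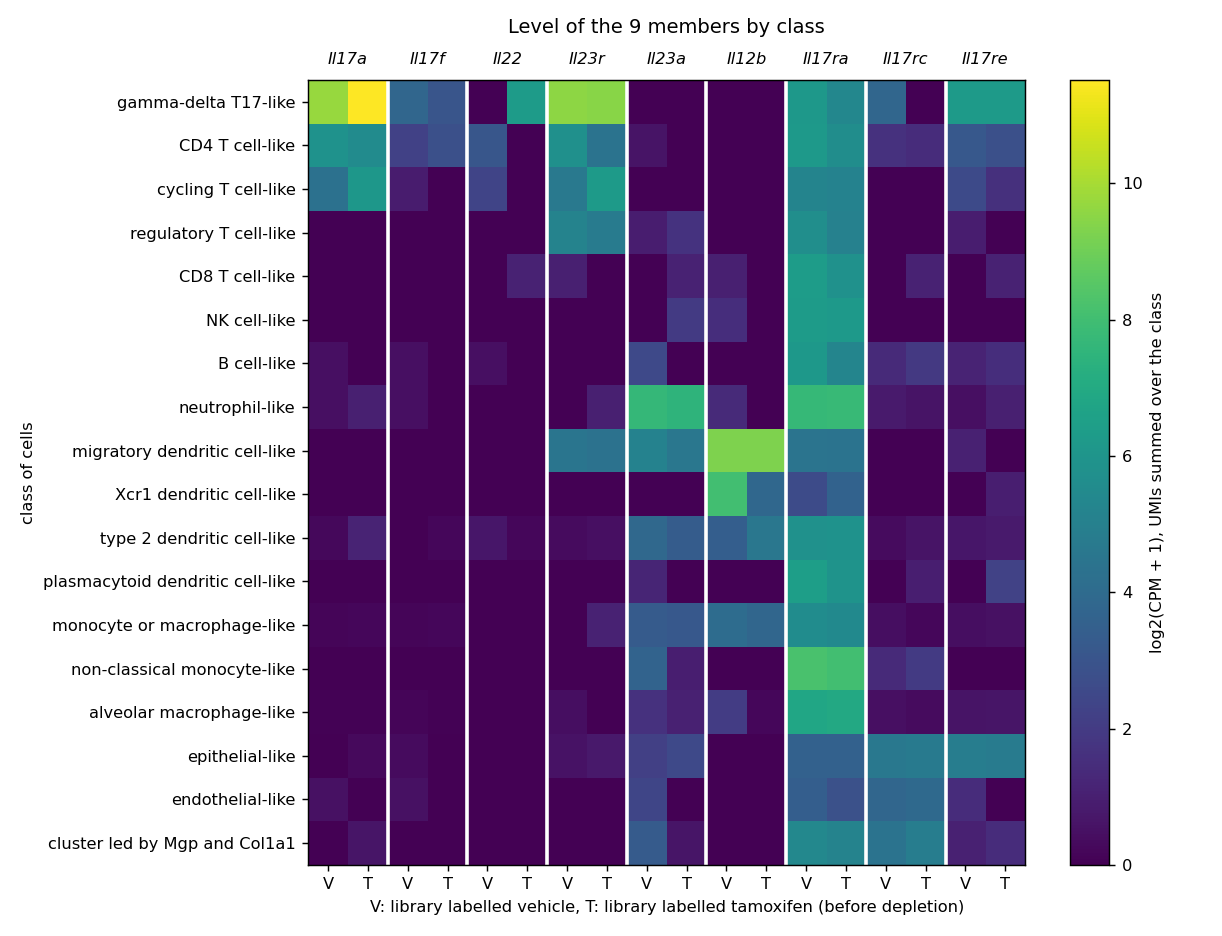
Colour gives log2(CPM + 1) of each of the 9 genes (columns, V for the library labelled vehicle and T for tamoxifen, before depletion) in 18 classes of cells (rows). Il17a and Il23r are highest in gamma-delta T17-like cells, Il23a in neutrophil-like cells, Il12b in migratory dendritic cell-like cells, and Il17rc and Il17re stand out in epithelial-like cells.

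The subunits of IL-23 had different leading classes, with some classes holding both. Il23a, the subunit specific to IL-23, was highest in neutrophil-like cells, with 516 UMIs, 202 CPM (185 to 221), with vehicle and 346 UMIs, 180 CPM (162 to 200), with tamoxifen. These cells held 48.0% and 49.8% of each library's Il23a UMIs. The ratio of tamoxifen to vehicle was 0.89 (0.774 to 1.02), within counting error. Il23a was found in 15.1% and 13.9% of neutrophil-like cells (median depths 3424 and 3643 UMIs), and at 2000 UMIs per cell in 12.1% and 11.1%. In alveolar macrophage-like cells (median depths 8804 and 9052.5) the thinned shares were 0.185% and 0.192%.

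Within the neutrophil-like cells, Il23a lay in the cluster led by Cxcl2 and Il1b, the genes of a neutrophil-attracting chemokine and of IL-1β. That cluster held 510 UMIs in 491 cells, 274 CPM, with vehicle and 338 UMIs in 401 cells, 232 CPM, with tamoxifen (0.846-fold, 0.736 to 0.973). The cluster led by S100a9 and S100a8 held 6 and 8 UMIs in 171 and 110 cells. The clusters were formed without Il23a, but on the other variable genes of the same cells.

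Dendritic and mononuclear cells added smaller amounts of Il23a. Migratory dendritic cell-like cells held 60 UMIs, 33.0 CPM (25.2 to 42.4), and 29 UMIs, 22.9 CPM (15.3 to 32.9), with 43 of the 60 in 1 cell. Type 2 dendritic cell-like cells held 206 and 68 UMIs, 14.0 and 9.07 CPM, and were 1.55-fold higher with vehicle (1.17 to 2.07). Monocyte or macrophage-like cells stood at 8.9 and 7.98 CPM.

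Epithelial-like cells also held Il23a, and over the whole class the library labelled tamoxifen was higher. Before depletion they had 114 and 169 UMIs, 3.53 and 4.75 CPM (1.35-fold, 1.05 to 1.72), and after depletion 451 and 746 UMIs, 3.31 and 5.57 CPM (1.68-fold, 1.49 to 1.89). The paired portions come from the same suspensions and do not replicate each other. After depletion 7 and 6 neutrophil-like cells were kept, and the part of neutrophil RNA was not tested. Il23a was uneven among epithelial clusters: after depletion it stood at 6.99 and 12.6 CPM in the cluster led by Spp1 and S100a6, at 5.71 and 7.72 in that led by Dcpp1 and Dlk1, and at 0.779 and 0.67 in that led by Lyz2 and Lyz1. In the cluster led by Zmat4 and Bex2 it was lower with tamoxifen, 1.68 and 0.826 CPM on 38 and 21 UMIs (0.493-fold, 0.275 to 0.861). The Dcpp1 cluster had 546 cells with vehicle and 1747 with tamoxifen, and its part in the class's difference was not tested.

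Il12b, the subunit shared by IL-12 and IL-23, lay in migratory dendritic cell-like cells. There it had 1146 UMIs, 630 CPM (594 to 667), with vehicle and 779 UMIs, 616 CPM (573 to 660), with tamoxifen, which is 66.1% and 73.9% of all Il12b UMIs. The ratio of tamoxifen to vehicle was 0.978 (0.892 to 1.07), and 6.35% of 8248 genes of the class had a 2-fold gap or more, 3.19% with tamoxifen above and 3.16% below. Il12b was found in 46 of the vehicle cells (45.5%) and 26 of 70 tamoxifen cells (37.1%), or 24.8% and 24.6% at 2000 UMIs per cell, so its level and its thinned share were alike in both libraries. B cell-like cells had 0 Il12b UMIs.

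Larger gaps in Il12b between treatments, where seen, rested on a few cells. Xcr1 dendritic cell-like cells, the cross-presenting type, had 247 UMIs in 3 of 42 cells with vehicle and 14 UMIs in 3 of 51 cells with tamoxifen, 260 and 13.2 CPM, with 166 UMIs in 1 vehicle cell. In that class 7.38% of 7939 genes were at least 2-fold apart. Type 2 dendritic cell-like cells had 147 and 170 UMIs, in 7 and 4 cells, and 1 tamoxifen cell held 155. Alveolar macrophage-like cells had 55 and 3 UMIs, in 3 cells each, all in the cycling cluster, and 1 vehicle cell held 30. Monocyte or macrophage-like cells held 131 and 88 UMIs in 9 and 6 cells. After depletion Il12b had 0 UMIs.

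**Figure D3:**
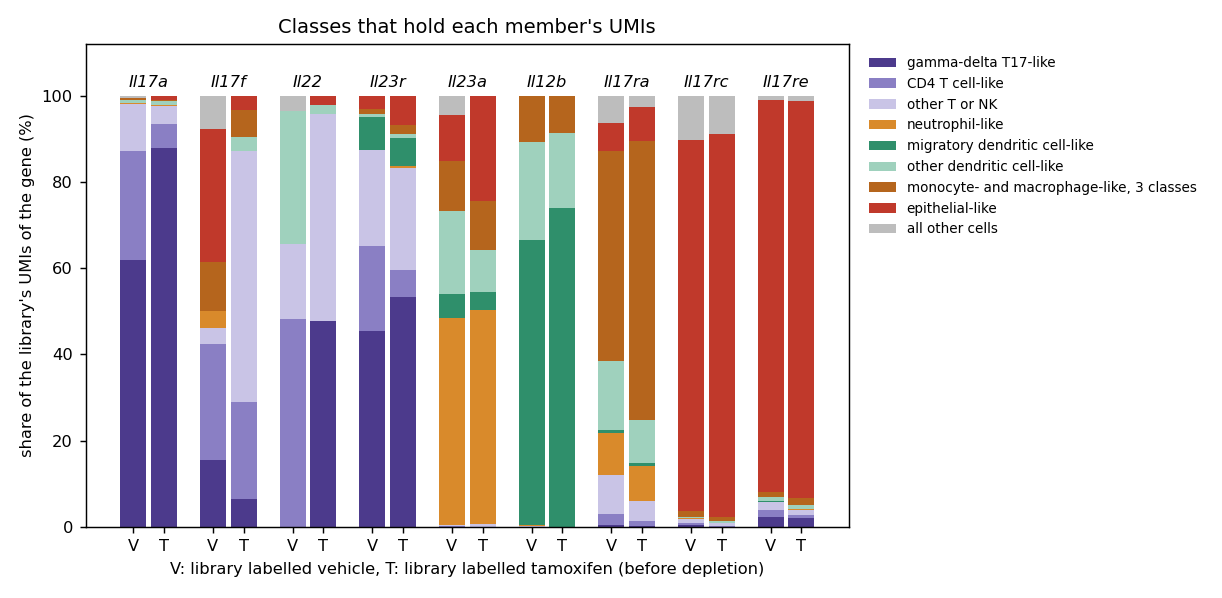
Share (%) of each library's UMIs of each of the 9 genes that lay in each group of classes, before depletion; V is the library labelled vehicle and T tamoxifen. Gamma-delta T17-like cells held 61.8% and 87.8% of Il17a, neutrophil-like cells 48.0% and 49.8% of Il23a, migratory dendritic cell-like cells 66.1% and 73.9% of Il12b, and epithelial-like cells 91.0% and 92.1% of Il17re.

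Of 8 other cytokines that induce or restrain IL-17, none was at least 2-fold apart in neutrophil-like, monocyte or macrophage-like, type 2 dendritic cell-like or alveolar macrophage-like cells, where 3.68%, 0.628%, 1.14% and 0.997% of all genes were. Il1b, a co-stimulus of gamma-delta T17 cells, was highest in neutrophil-like cells, 15200 and 14900 CPM. Il18 was highest in alveolar macrophage-like cells (332 and 333 CPM) and Tgfb1 in non-classical monocyte-like cells (498 and 479 CPM). In migratory dendritic cell-like cells 1 of the 7 measured was higher and 1 lower with tamoxifen, against 3.19% and 3.16% of all genes there. Il6, which helps T cells take on the IL-17 programme, stood at 99.4 and 41.1 CPM (2.42-fold lower, 1.77 to 3.36), and Il12a, the partner of Il12b in IL-12, had 1 UMI (0.549 CPM) with vehicle and 43 (34.0 CPM) with tamoxifen. The 8 monocyte or macrophage markers summed to 233 CPM and 856 CPM in those cells, and their part in these differences was not tested. The highest Il6 of any class was in the cluster led by Mgp and Col1a1, 137 and 266 CPM.

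Il17ra, the chain common to the receptors of the family, had most of its UMIs in immune cells, at very different levels. Non-classical monocyte-like cells had the highest level, 293 CPM (265 to 325) and 262 CPM (232 to 296), followed by neutrophil-like cells at 212 CPM (194 to 230) and 213 CPM (193 to 235). Alveolar macrophage-like cells stood at 110 CPM (105 to 115) and 124 CPM (119 to 129) and, being numerous, held 34.8% and 53.5% of all Il17ra UMIs. The cluster led by Mgp and Col1a1, which is not immune, stood at 40.1 and 34.7 CPM, above migratory dendritic cell-like (20.9 and 19.8) and Xcr1 dendritic cell-like cells (5.26 and 11.3). Epithelial-like cells stood at 11.0 (9.86 to 12.2) and 11.1 CPM (10.0 to 12.3), and gamma-delta T17-like cells at 70.1 and 39.7 CPM on 22 and 11 UMIs.

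Between treatments Il17ra was alike in neutrophil-like cells. In lymphocyte classes with at least 20 cells in each library it ranged from nearly equal to lower with tamoxifen, and was higher in none. In alveolar macrophage-like cells it was 1.13-fold higher (1.06 to 1.2) in the library labelled tamoxifen, and 0.997% of genes of that class were at least 2-fold apart. Within that class the main cluster, led by Chil3 and Ccl6, stood at 126 and 125 CPM and the cycling cluster at 70.0 and 73.5. The cluster led by Mmp12 and Lepr, with 130 and 448 cells, stood at 110 and 155 CPM (1.4-fold, 1.19 to 1.67). In all T and NK cells together Il17ra was 1.31-fold higher with vehicle (1.14 to 1.51), 71.4 against 54.5 CPM, and in B cell-like cells 1.86-fold higher (1.31 to 2.7), 68.6 against 36.8 CPM. Among T cells the vehicle level was 2.21-fold higher (1.34 to 3.81) in the CD4 T cell-like cluster led by Tbc1d4 and Tnfsf8, 1.83-fold (1.18 to 2.91) in the unnamed cluster led by Cd8b1 and Rras2, and 2.88-fold (1.03 to 9.94) in that led by Xcl1 and Cd74, there on 18 and 5 UMIs. The share of all genes apart was not computed for these lymphocyte groups. Levels were nearly equal in NK cell-like cells (78.3 and 73.8 CPM) and cycling T cell-like cells (36.2 and 33.7 CPM). The same held in the CD4 T cell-like cluster led by Pard3 and Tnfsf8 (67.9 and 67.3 CPM). In epithelial-like cells the levels were equal within counting error before depletion, and after it tamoxifen was 1.19-fold higher (1.09 to 1.31), where the levels were 6.17 and 7.36 CPM.

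Il17rc, the partner of Il17ra for IL-17A and IL-17F, was mainly a transcript of non-immune cells. Epithelial-like cells had 761 UMIs, 23.6 CPM (21.9 to 25.3), with vehicle and 910 UMIs, 25.6 CPM (24.0 to 27.3), with tamoxifen, which is 86.1% and 88.7% of all Il17rc UMIs. The cluster led by Mgp and Col1a1, which expressed fibroblast and mural genes and was left unnamed, stood at 19.9 and 28.9 CPM, endothelial-like cells at 12.9 and 14.3, and all immune cells together at 0.605 and 0.678. Among immune cells the gamma-delta T17-like class stood at 12.8 and 0 CPM, on 4 and 0 UMIs. The intervals of the epithelial-like and the Mgp and Col1a1 cells overlapped in both libraries. In epithelial-like cells the ratio of tamoxifen to vehicle was 1.09 (0.985 to 1.2) before and 1.1 (1.04 to 1.15) after depletion.

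Il17re, the partner of Il17ra for IL-17C, was shared between epithelium and the gamma-delta T17-like cells. Epithelial-like cells had 926 UMIs, 28.7 CPM (26.9 to 30.6), and 965 UMIs, 27.1 CPM (25.5 to 28.9), which is 91.0% and 92.1% of all Il17re UMIs. The gamma-delta class, on 24 and 21 UMIs in 16 and 14 cells, stood higher at 76.5 CPM (49.0 to 114) and 75.7 CPM (46.9 to 116), and the intervals of both classes did not overlap. All immune cells together stood at 1.39 and 1.49 CPM, and the cluster led by Mgp and Col1a1 at 1.06 and 1.73. The ratio of tamoxifen to vehicle in epithelial-like cells was 0.946 (0.863 to 1.04) before and 0.942 (0.899 to 0.987) after depletion. Il17c, the gene of its ligand, had few UMIs anywhere, for example 2 and 6 in neutrophil-like cells (0.784 and 3.12 CPM).

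At the depth of epithelial-like cells (median 24804.5 and 28821.5 UMIs) Il17rc was found in 42.1% and 48.4% of cells and Il17re in 41.6% and 48.0%. At 2000 UMIs per cell the shares were 5.84% and 3.81%, and 5.45% and 4.63%, in the reverse order between treatments, so no order is read from them. In alveolar macrophage-like cells, with median depths of 8804 and 9052.5 UMIs, the thinned shares were 0.0617% and 0.048% for Il17rc and 0.185% and 0.048% for Il17re. Il17ra and Il17rc were found together in 11.5% (9.65 to 13.5) and 14.7% (12.6 to 16.9) of epithelial-like cells before depletion, against 0.305% and 0.143% of alveolar macrophage-like cells. After depletion, at median depths of 18293 and 16840 UMIs, the shares in epithelial-like cells were 4.18% and 4.54%. After thinning to 2000 UMIs, 1 epithelial-like cell of each library before depletion held both (0.0974% and 0.0908%), so no order is read from the unthinned shares.

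The epithelial-like class was mixed, and 3 of its clusters lay mostly in 1 treatment: that led by Apoe had 119 vehicle and 7 tamoxifen cells before depletion, that led by Dcpp1 and Dlk1 had 68 and 254, and that led by Scgb3a2 and Aox3 had 0 and 44. Il17re varied over them, from 12.9 CPM (10.2 to 16.0) in vehicle cells of the Lyz2 and Lyz1 cluster to 47.6 CPM (35.6 to 62.2) in the tamoxifen cells of the Scgb3a2 cluster, an airway secretory gene. The cluster led by Rtkn2 and Hopx, genes of alveolar type 1 cells, stood at 37.9 and 39.2 CPM. In the Dcpp1 and Dlk1 cluster Il17re was lower in the library labelled tamoxifen both before depletion, 33.5 and 25.2 CPM, and after it, 37.8 and 24.7 CPM (1.53-fold lower, 1.37 to 1.7). Without the 3 clusters, a choice made after the data were seen, the log2 ratio of Il17re in epithelial-like cells moved from -0.08 (-0.21 to 0.05) to 0.16 (0.0 to 0.34), a change of sign. Il17rc ranged from 16.2 CPM (12.4 to 20.9) in the tamoxifen cells of the Lyz2 cluster to 41.9 CPM (33.3 to 52.0) in those of the Hspa1a and Ly6d cluster.

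**Figure D4:**
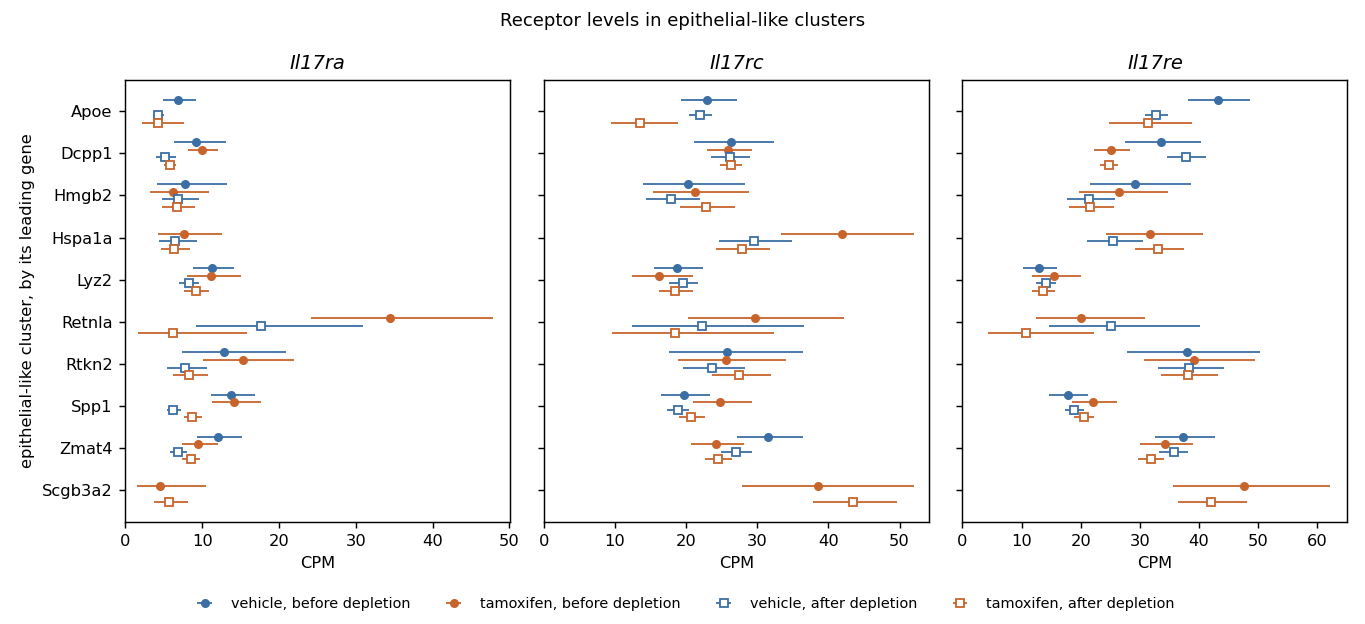
CPM of Il17ra, Il17rc and Il17re (horizontal axes) in each epithelial-like cluster with at least 20 cells in the library, with exact Poisson 95% intervals; filled points are before and open squares after depletion, blue the libraries labelled vehicle and orange those labelled tamoxifen. Il17re spans 12.9 to 47.6 CPM over the clusters before depletion, and in the Dcpp1 and Dlk1 cluster the tamoxifen values lie below the vehicle values.

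Of the listed signalling genes downstream of the receptors, none was 2-fold apart in epithelial-like cells, which is near the share of all genes there. All 19 of 19 on the list reached 10 CPM, and 0 were at least 2-fold apart, against 1.86% of 9393 genes (0.532% higher and 1.33% lower with tamoxifen). Their median log2 ratio was -0.05 and that of all genes -0.04. The highest were Cebpb (159 and 169 CPM), a transcription factor of the response, its relative Cebpd (128 and 117), Elavl1, which encodes an RNA-binding protein (98.6 and 91.2), and Nfkbiz, which encodes the IκBζ co-activator (94.9 and 107).

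Of 30 target genes that IL-17 is known to induce, 17 reached 10 CPM in epithelial-like cells before depletion. In the library labelled tamoxifen 0 were at least 2-fold higher and 1 lower, against 0.532% and 1.33% of all 9393 genes of the class. The median log2 ratio was -0.02, and that of all genes -0.04. That gene was Ccl2, a monocyte-attracting chemokine, with 328 UMIs (10.2 CPM) and 75 UMIs (2.11 CPM), 4.82-fold lower (3.74 to 6.28). Its highest class was monocyte or macrophage-like, at 502 and 310 CPM, and after depletion the epithelial-like level was 0.36 and 1.06 CPM, in the other direction. The 8 monocyte or macrophage markers summed to 3487 and 3563 UMIs in epithelial-like cells before depletion, with none at 0, and their part was not tested. The highest targets were Cxcl15, the lung chemokine lungkine (2370 and 2170 CPM), the siderophore-binding Lcn2 (1120 and 949), Nfkbiz, and the neutrophil chemokine Cxcl1 (82.2 and 102). None of the measured targets was 2-fold higher in the library with the higher Il17a, as was the case for nearly all genes of the class.

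Several targets in the epithelial-like class had lower levels after depletion. S100a8 stood at 16.2 and 15.8 CPM before depletion and 0.72 and 0.553 after it, S100a9 at 27.9 and 30.4 and then 0.11 and 0.635, and Cxcl2 at 92.0 and 76.1 and then 32.1 and 31.5. Their highest class was neutrophil-like, at 15100 and 15000, 26800 and 26800, and 14100 and 14400 CPM. The 5 neutrophil markers, which include S100a8 and S100a9, summed to 54.2 and 52.2 CPM in epithelial-like cells before depletion, with none at 0. Most of that sum is S100a8 and S100a9, so it is not separate from these targets. The part of neutrophil RNA was not tested. After depletion 13 of the 30 reached 10 CPM and 0 were at least 2-fold apart, against 1.73% of 9154 genes (0.535% higher and 1.19% lower).

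**Figure D5:**
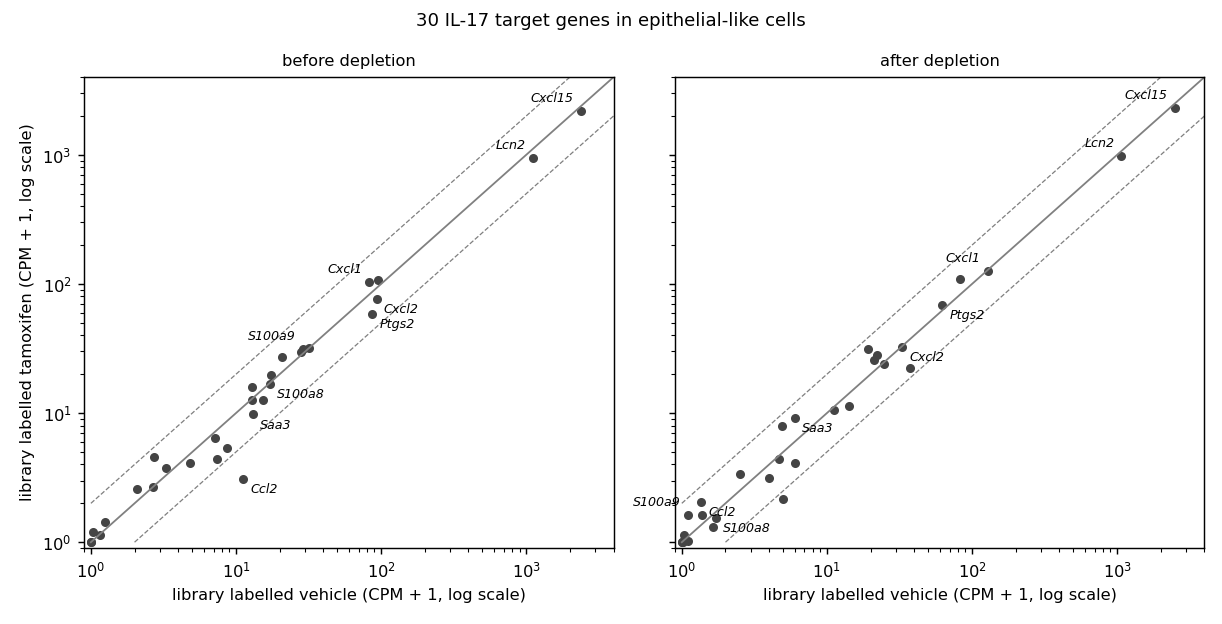
CPM + 1 (log scales) of 30 IL-17 target genes in epithelial-like cells of the library labelled vehicle (horizontal) and tamoxifen (vertical), before (left) and after depletion (right); the solid line marks equality and the dashed lines 2-fold. Most points lie within the dashed lines, Ccl2 lies below them before depletion, and S100a8 and S100a9 are near 0 CPM after it.

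The cluster led by Mgp and Col1a1 held 118 and 84 cells before depletion, and 18 of the 30 targets reached 10 CPM there. In the library labelled tamoxifen 2 were higher and 5 lower, 7 in all, while 6.04% of 9659 genes had a 2-fold gap or more, 3.13% with tamoxifen above and 2.91% below. The higher ones were the acute-phase gene Saa3 (153 and 604 CPM, 3.95-fold, 3.53 to 4.43) and Cxcl15 (11.7 and 241 CPM). The lower ones were Cxcl2 (222 and 65.3 CPM), the metalloproteinase genes Mmp9 (110 and 31.2) and Mmp3 (101 and 47.9), S100a8 (77.3 and 9.24) and S100a9 (114 and 20.8). After depletion 16 reached 10 CPM, of which 2 were higher and 7 lower, against 5.07% of genes (2.05% higher and 3.02% lower). Lower ones included Ccl2 (402 and 159 CPM), Ccl7 (71.9 and 14.7) and Lcn2 (237 and 79.5). Mmp13 (55.9 and 0.772) and Ptgs2 (206 and 87.2) were also lower, and Muc5b (1.52 and 13.9) was higher. None of these was called before depletion. Cxcl2 was lower in both portions (108 and 34.7 CPM after depletion), but Mmp9 (14.1 and 64.8), Cxcl15 (412 and 197) and Mmp3 (18.6 and 36.3, under 2-fold) turned direction. Saa3 was no longer 2-fold apart after depletion (157 and 254 CPM), and S100a8 and S100a9 had 0 to 2 UMIs. The highest class of Cxcl15 was epithelial-like and that of Cxcl2, Mmp9, S100a8 and S100a9 neutrophil-like. In the Mgp and Col1a1 cluster before depletion the 5 neutrophil markers summed to 231 and 32.3 CPM (Cxcr2 at 0 with tamoxifen). These markers include S100a8 and S100a9, which make up most of the sum, so it is not separate from those targets. The 5 epithelial markers summed to 155 and 397 CPM. Cxcl2 and Mmp9 went in the direction of the neutrophil sum and Cxcl15 in that of the epithelial sum. The part of neutrophil or epithelial RNA was not tested. Of the 19 signalling genes 18 reached 10 CPM there and 0 were 2-fold apart.

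Over 53 profiles (each class with at least 20 cells in a library, over the 4 libraries) the 14629 genes at 10 CPM or more in any profile were ranked by Pearson correlation of log2(CPM + 1) with Il17a, Il23a, Il17rc and Il17re. The profiles share libraries and depth, and r is given as a description. Nearest to Il17a were Gm38411 (0.82), Cysrt1 (0.8), Lingo4 and Cdh10 (0.79 each) and Tcrg-V6, a gamma-chain variable segment (0.78), and among the genes of the axis Il23r (0.76) and Il17re (0.54). Nearest to Il23a were Slc7a11 (0.85), Tarm1 and Gpr84 (0.84 each), Gm26535 (0.82) and Ptgs2os (0.81). Nearest to Il17rc were Ccdc9b, Gm28055 and Cadps2 (0.89 each), Nfib and Mdfi (0.88 each). Nearest to Il17re were Trpm6 (0.89), Kcnk1 (0.84), Gm48321 (0.78) and 2010300C02Rik (0.77), while its neighbour Il17rc reached 0.53.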

How the data were processed

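Single cells of mouse lung tumours were sequenced in 4 libraries, 1 per group, with 10x 3′ version 3 chemistry, per the labels' protocols. The values used are raw UMI counts per gene and barcode as deposited. The file headers name Cell Ranger 7.0.1, while the submitters' processing notes name Cell Ranger 7.2.0 and the mm10 build. The annotation and the intron setting are not given in the sources used here. Of the barcodes (6558 to 7867 per library, 92644997 to 144994771 UMIs), cells were those with 200 genes or more whose mitochondrial share was no higher than 20%.

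Scrublet, run in scanpy 1.11.5, called 188, 1, 1 and 0 doublets at its own threshold and so did not work. A score above 0.25 was used in its place, which removed 225, 116, 120 and 153 barcodes. Cells were clustered on 2000 variable genes without the 9 members (40 components, 15 neighbours, Leiden resolution 1), and T and NK cells were clustered again (20 components). A cluster was named from marker lists only where at least 3 markers were found in 10% of its cells. Members' UMIs were summed by class and library. Exact Poisson, Clopper-Pearson and conditional binomial intervals (95%, scipy 1.17.1) cover counting error only, and log2 ratios used a pseudocount of 1 CPM. Shares were also computed with each cell thinned to 2000 UMIs, leaving out shallower cells. A gene was called apart if it differed at least 2-fold and had 10 CPM or more with either treatment. The rule was tried on simulated Poisson counts, which lack the spread between cells seen in the data. Ratios needed 20 UMIs over both libraries.

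Named genes are the 9 members, the list genes past that rule with the 4 of highest mean CPM, and the 5 of highest correlation. The members and lists were chosen with earlier results of these data known. Alternatives covered filters, doublets, scaling (TMM of edgeR 4.0.16, medians of ratios), pseudocount, the CPM minimum, clustering and means over cells. The treatment label of the vehicle groups names ethanol and the protocol names an oil, so they are called vehicle. An allele of the genotype and the values of some genes, which the lists' counts include, are not reported here.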

Additional observations from a re-analysis of the deposited data

How the results depend on the processing

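Of 133 alternatives computed for 21 results, 112 stayed within counting error (or within 1.5 times, for counts) and 21 moved. A change of sign was counted only for log2 ratios of at least 1 either way, which were those of Il17a and Il22. Neither changed sign, and that of Il22 rested on a floor for its 0 vehicle UMIs. Il17a in gamma-delta T17-like cells, a log2 ratio of 1.77, was 2.23 when each cell's CPM was averaged and, in an alternative chosen after seeing the data, 2.42 without the 2 highest cells of each library. The share of Il17a UMIs in that class was 84.3% in the library labelled tamoxifen without doublet removal, and 67.8% (vehicle) and 91.8% (tamoxifen) with cells gated singly by receptor and lineage genes. Averages of single cells gave log2 ratios of 0.13 for Il12b (-0.03 from sums), 0.05 for Il17ra in alveolar macrophage-like cells (0.17), and in epithelial-like cells -0.04 for Il17rc (0.11) and 0.13 for Il17re (-0.08), or 0.02 for Il17re after depletion. The signs of Il12b, Il17rc and Il17re thus depend on this choice, and their differences are small. Without the epithelial clusters led by Apoe, Dcpp1 and Scgb3a2, also chosen after seeing the data, the log2 ratio of Il17re was 0.16 before and 0.09 after depletion and that of Il17rc after depletion 0.06, and 99 genes were 2-fold apart instead of 175. Then 3 IL-17 targets were lower, Ccl2, Saa3 (11.8 and 0.515 CPM) and Mmp3 (10.9 and 2.87 CPM), while TMM and median-of-ratios scaling gave 0, since Ccl2 lies just above the minimum. With no CPM minimum 381 genes were apart in epithelial-like and 4566 in gamma-delta T17-like cells (2059 with it). No paired analysis was possible because each group has 1 library, and no library could be left out. Il17f, Il22 and the gamma-delta class are limited by depth and by few cells.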
